A study of Arabidopsis thaliana with 16 samples.

Results

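Dark-grown Arabidopsis thaliana suspension cells were compared after 6 h with the inhibitor TA or with its solvent, methanol. The comparison used 8 of the 16 deposited columns, chosen by their titles: 4 TA arrays and the 4 methanol arrays that were normalized together with them. The cells were of ecotype Landsberg erecta, were kept shaking in Murashige and Skoog medium with the auxin analogue 2,4-D, and were treated on the third day after sub-culture, as exponential growth began. TA cells received 2 µM TA in methanol, and methanol cells received methanol alone, 20 µL in both groups. Each of the 4 replicates of a group combined 2 flasks of 100 mL. The whole series held 12 arrays and also tested a second inhibitor, IXB, in columns that were normalized apart and are not used here. The labels call the replicates biological without naming separate parent cultures. Each p-value therefore reflects only how far these samples scatter, and some of that scatter may be technical.

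As background, TA is the short name of thaxtomin A, a phytotoxin made by Streptomyces species that cause potato scab, and the name is general knowledge rather than part of the labels. Plant cells make cellulose at the plasma membrane, where synthase complexes extrude glucan chains that are tied together by hemicelluloses such as xyloglucan and embedded in pectin. Cells in which cellulose synthesis is blocked are known to alter the rest of the wall and to switch on stress signalling, and the series title places these samples in that setting.

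Values are log2 intensities of ATH1 probe sets, and a difference is the TA mean minus the methanol mean on that scale. The limma fit over 22746 probe sets found 1230 (5.41%) higher in TA cells and 1069 (4.7%) lower, at the threshold of an adjusted p under 0.05. Increases reached further than decreases. Among the calls, 253 probe sets were higher by at least 1 log2 unit, 52 of them by at least 2, and 0 were lower by that much. At 0.5 log2 units the counts were 732 higher and 223 lower. The median change of the called probe sets was 0.58 for those higher and -0.40 for those lower, against a median of -0.01 over all. The 2 groups of arrays did not overlap for 1168 of the probe sets called higher and 991 of those called lower. Over all 22746 probe sets, called or not, they did not overlap in either direction for 3643 (16%).

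The calls depended on the level in methanol cells. Of 7010 probe sets under 3 log2, 74 (1.06%) were higher and 3 (0.0428%) lower, whereas between 5 and 7 log2 457 of 5466 (8.36%) were higher and 484 (8.85%) lower. For several lists, counts of lower genes are therefore also given for genes with a mean of at least 5 log2 over the 8 arrays. Of the 5918 genes at that level, 8.04% were higher and 7.22% lower. The median standard error of a difference was 0.0902 log2.

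**Figure D1:**
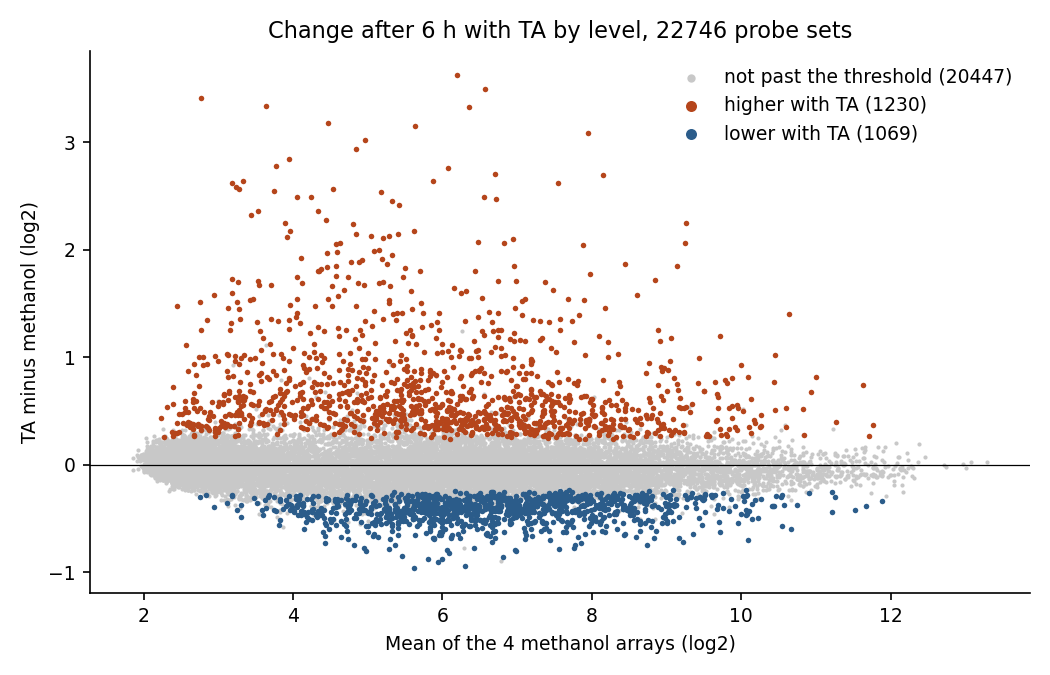
Difference between the TA and methanol means (vertical axis, log2) against the mean of the 4 methanol arrays (horizontal axis, log2) for 22746 probe sets, 1 point each. The 1230 higher probe sets reach 3.62 and the 1069 lower ones end at -0.96; few lower ones lie under 3.

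The 8 arrays separated by treatment along the first principal component, which held 51.9% of the variance and placed the TA arrays at 16.5 to 22.8 and the methanol arrays at -21.8 to -18.1. Correlations between arrays were 0.9944 to 0.9968 among TA arrays, 0.9953 to 0.9975 among methanol arrays and 0.9885 to 0.9934 across the groups. Methanol replicate 3 and TA replicate 3 lay lowest on the second component, at -19.8 and -12.5, with the other arrays between 0.207 and 11.8. The annotation named 13356 genes through a probe set of exactly 1 gene, and 11799 of these carry only a locus tag. For such a locus the function given below is that of the list it was placed on from general knowledge, and 8730 probe sets are unnamed here.

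The measured markers of pollen, root hairs and guard cells were near the bottom of the scale and did not pass the test. The 3 measured pollen markers averaged 2.67 to 2.91 on the TA arrays and 2.65 to 2.96 on the methanol arrays, and the 2 root hair markers 2.78 to 3.13 against 2.81 to 3.17. FMA, a guard cell regulator, was at 2.61 to 2.97 with TA and 2.73 to 2.90 with methanol. The 5 measured genes of the photosynthetic mesophyll list, which include RCA (Rubisco activase) and PSAE-1 (a photosystem I subunit), were bright in both groups, with array means of 8.98 to 9.10 with TA and 8.99 to 9.19 with methanol. None of these 5 passed the test. The 1 measured marker of xylem with a secondary wall, IRX15-L, did pass (difference 0.99, adjusted p = 0.000801), and its values are given with the wall genes.

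Most genes of the wall families did not pass the test, while a few XTH, expansin-like, pectin methylesterase, peroxidase and GH9 genes rose steeply. Over 9 wall families with 230 measured genes, 28 were higher and 7 lower, with a median difference of 0.04. The shares over all genes were 4.98% higher and 3.98% lower, with a median of -0.01. Of 10 measured XTH genes, whose enzymes cut and rejoin xyloglucan, 4 were higher and 0 lower. XTH18 showed the largest difference of any named gene. It was at 9.95, 10.21, 10.04 and 10.06 on the TA arrays, against 6.36, 6.61, 6.68 and 6.63 on the methanol arrays. The groups lay far apart, and the difference was 3.49 ± 0.09 log2 (SE, n = 4 each), 11.3-fold, with a limma adjusted p of 2.22e-10. Its neighbour on the chromosome, XTH19, was at 10.45, 10.79, 10.43 and 10.61 with TA and 8.45 to 9.01 with methanol, a 3.30-fold difference. XTH16 (difference 0.67) and XTH33 (0.38) also rose, and both were dim in methanol cells, at 2.59 to 2.78 for XTH16 and 3.07 to 3.19 for XTH33. The other 6 XTH genes differed by -0.10 to 0.22 and did not pass.

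All 3 members of the expansin-like A group rose, and no other expansin did. Expansins loosen the wall without cutting it, although the activity of the expansin-like proteins is less well known. EXLA3 was at 10.01, 9.94, 9.69 and 10.01 on the TA arrays and 7.72, 8.13, 7.66 and 8.00 on the methanol arrays, 4.10-fold higher. EXLA2 was 3.42-fold and EXLA1 2.64-fold higher. EXLA1 was the brightest of the 3, at 11.84 to 12.21 with TA and 10.56 to 10.76 with methanol. In all 3 genes the groups did not overlap. EXPB3, a beta-expansin, was lower by all 4 arrays, at 7.98 to 8.18 with TA and 8.38 to 8.97 with methanol (difference -0.55 ± 0.11, adjusted p = 0.00668). The remaining 15 of the 19 measured expansins did not pass.

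Pectin genes split by enzyme. Pectin methylesterases remove methyl groups from pectin, and 7 of 45 measured members were higher and 0 lower. Of all genes, 4.98% were higher and 3.98% lower. AT2G47550, from that list, was at 9.75, 9.68, 9.66 and 9.65 with TA, against 5.99, 6.55, 6.33 and 6.56 with methanol. The TA arrays were nearly equal and lay far above the methanol arrays, a 10.0-fold difference (adjusted p = 1.2e-09). ATPMEPCRB was 5.90-fold higher and AT3G49220 3.08-fold higher. The pectate lyases, which cleave pectin, had 0 of 23 members higher and 3 lower. At a mean of at least 5 log2, 3 of 7 (42.9%) were lower, against 7.22% of all genes at that level. AT3G53190 was the largest of the 3, at 9.16, 9.22, 8.97 and 9.06 with TA and 9.69, 9.77, 9.73 and 9.70 with methanol, a difference of -0.62 ± 0.08 (adjusted p = 0.000164). AT3G27400 stayed bright, at 11.47 to 11.59 with TA and 11.81 to 11.98 with methanol. The polygalacturonases, pectin hydrolases, had 2 higher and 2 lower of 45. At a mean of at least 5 log2, 2 of 10 (20.0%) were higher and 2 lower, against 8.04% and 7.22% of all genes.

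**Figure D2:**
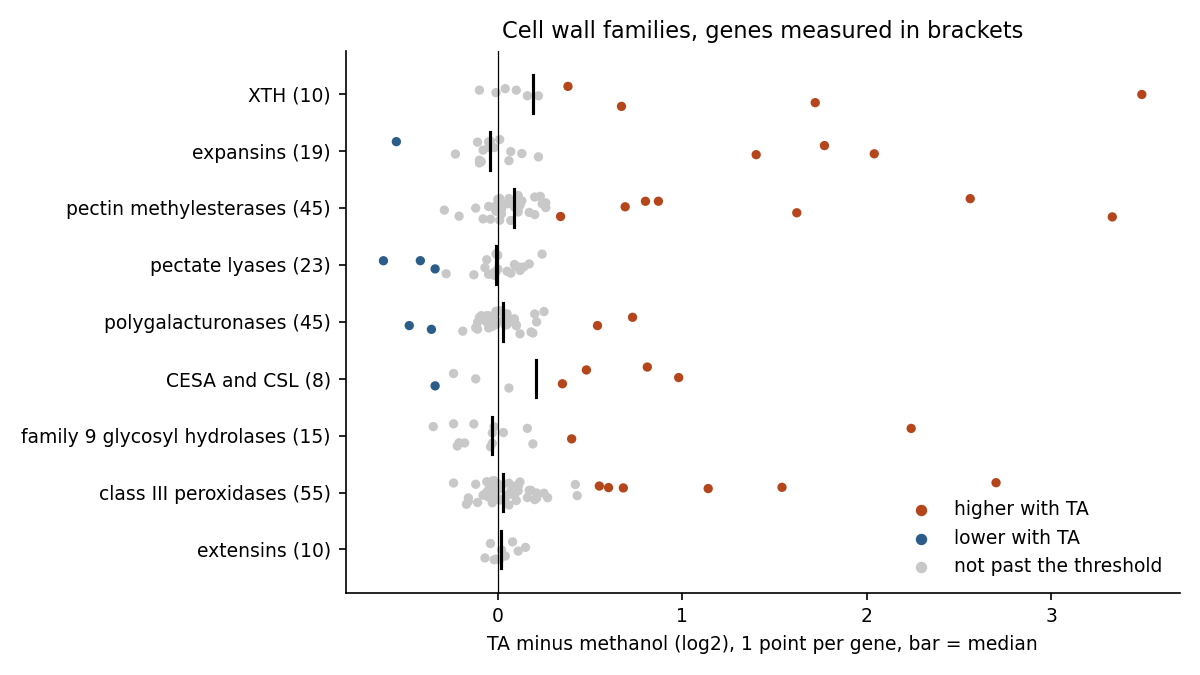
Difference between TA and methanol means (log2) of every measured gene in 9 wall families, 1 point per gene, black bars at the family medians, filled in colour where the adjusted p was under 0.05. Most genes lie near 0, and a few XTH, expansin-like, pectin methylesterase, peroxidase and GH9 genes lie between 1 and 3.5.

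Genes for the synthesis of the other wall glucans rose by less. Of 8 measured members of the cellulose synthase and cellulose synthase-like family, none of which is a cellulose synthase of the primary wall, 4 were higher and 1 lower. The shares over all genes were 4.98% higher and 3.98% lower. CSLC04, a synthase of the xyloglucan backbone, was at 6.99, 7.04, 7.00 and 7.15 with TA and 6.30, 6.43, 6.17 and 6.04 with methanol (1.75-fold, adjusted p = 7.38e-05). CSLA03, of the mannan synthase subfamily, was 1.98-fold higher. The other 2 calls, CSLC12 and CSLD2, did not hold without each array, and the family count ran from 2 to 4, with 2 without TA replicate 2. The lower call, ATCSLC08 (difference -0.34 ± 0.10, adjusted p = 0.0442), was lost without any 1 of 6 arrays and held without methanol replicate 1 or methanol replicate 4. COB, a membrane-anchored protein that orients cellulose deposition, was at 9.27, 9.28, 9.26 and 9.37 with TA and 8.87, 8.91, 8.84 and 8.85 with methanol, a small but separate difference of 0.43 ± 0.07 (adjusted p = 0.00119). AT1G45688, also from the list of cellulose synthesis partners, differed by 0.54 ± 0.08, and the other 3 measured partners did not pass. GH9B5, a family 9 glycosyl hydrolase of the endoglucanase type, was 4.73-fold higher, at 7.37, 6.82, 7.08 and 6.90 with TA against 4.71, 5.08, 4.82 and 4.60 with methanol. GH9B7 was 1.32-fold higher, and 13 of the 15 measured GH9 genes did not pass.

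Genes for phenolic cross-linking and lignin precursors were among the increases. CCR2, a cinnamoyl-CoA reductase of monolignol synthesis, was at 5.94, 5.60, 5.99 and 5.74 with TA and 3.22, 3.76, 2.73 and 3.06 with methanol (6.16-fold, adjusted p = 5.56e-07). HCT, an acyltransferase earlier in the pathway, was 1.82-fold higher, whereas CCOAMT, a methyltransferase, differed by 0.24 and did not pass. BGLU46 and BGLU45, adjacent genes for beta-glucosidases that act on monolignol glucosides, were 3.86-fold and 1.87-fold higher. GT72B1, a glucosyltransferase for small phenolics, was lower, at 5.45, 5.16, 5.12 and 5.09 with TA and 6.12, 5.75, 5.95 and 5.76 with methanol (difference -0.69 ± 0.11, adjusted p = 0.000985). Class III peroxidases, which can couple phenolics in the wall, had 6 of 55 members higher and 0 lower, against 4.98% and 3.98% of all genes. At a mean of at least 5 log2, 4 of 13 (30.8%) were higher and 0 lower, against 8.04% and 7.22% of all genes. AT5G39580 rose 6.48-fold, with 9.49, 9.49, 9.33 and 9.32 on the TA arrays and 6.56, 7.04, 6.69 and 6.56 on the methanol arrays. Prx37 and its neighbour AT4G08780 were 2.21-fold and 1.60-fold higher. IRX15-L, needed for xylan deposition in secondary walls, was 1.99-fold higher, at 4.77 to 4.93 with TA and 3.43 to 4.34 with methanol. The 10 measured extensins, structural wall proteins, gave 0 calls and a median of 0.02.

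**Figure D3:**
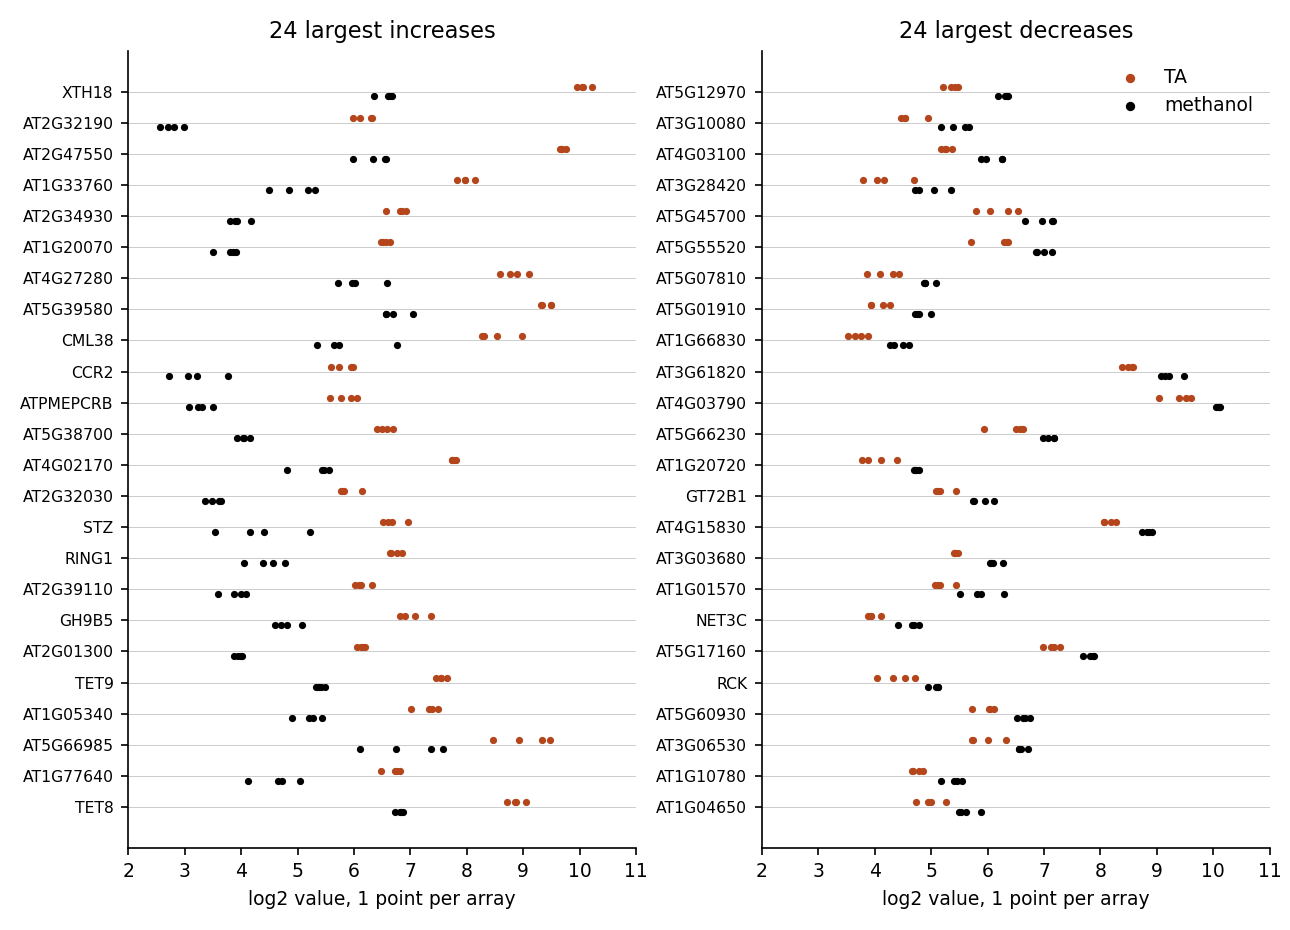
Log2 values on each array for the 24 named genes with the largest increases (left) and the largest decreases (right), TA points above methanol points in each line. The increases span 2.06 (TET8) to 3.49 (XTH18) and the decreases -0.65 to -0.94. Only genes whose groups do not overlap were eligible.

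Early stress regulators and calcium proteins rose. Plant cells that meet an elicitor, a wound or a damaged wall are known to admit calcium and to switch on a common set of regulators within minutes to hours. On a list of such genes, all 13 measured members were higher with TA, with a median difference of 1.25. Over all genes, 4.98% were higher. The list shares 2 members each with the calmodulin-like, U-box and WRKY families below, so those counts are not separate from it. The list was written with earlier results known, and 2 of its members were already known to rise. All 11 others were higher, but they were listed with those results known, so they are no independent check. STZ, a zinc-finger repressor, was at 6.51, 6.60, 6.95 and 6.68 with TA and 4.40, 4.16, 3.53 and 5.22 with methanol. The methanol arrays of STZ were widely spread, yet all lay below the TA arrays (5.13-fold, adjusted p = 5.84e-05). Of 7 measured WRKY genes 2 were higher and 0 lower, and both are on this list. They were WRKY6 and WRKY53, transcription factors of defence and senescence, which rose by 0.52 ± 0.11 and 0.49 ± 0.09.

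Of 31 measured calmodulin and calmodulin-like genes, whose proteins bind calcium, 10 were higher and 1 lower, against 4.98% and 3.98% of all genes. CML38 was at 8.26, 8.30, 8.53 and 8.97 with TA and 5.64, 5.34, 5.74 and 6.77 with methanol, 6.24-fold higher. Replicate 4 was the highest array in both groups for CML38. AT4G27280 was 6.75-fold higher, AT5G39670 2.85-fold and AT3G25600 2.03-fold. Without any single array the number of members higher was 7 to 10, lowest without methanol replicate 1.

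Among 42 AP2/ERF transcription factors, a family of ethylene and stress regulators, 8 were higher and 0 lower, against 4.98% and 3.98% of all genes. AT1G33760 was at 8.14, 7.83, 7.97 and 7.96 with TA and 4.49, 5.18, 4.85 and 5.31 with methanol, an 8.10-fold difference (adjusted p = 3.18e-08). AT1G77640 was 4.18-fold and AT4G28140 2.38-fold higher. Of 9 U-box ubiquitin ligases, which mark proteins for turnover, 4 were higher. PUB23 was at 8.02, 7.71, 7.88 and 7.76 with TA and 6.24, 6.55, 6.55 and 6.53 with methanol (2.59-fold), and PUB22 was 3.09-fold higher. Both are known to dampen immune signalling. RING1, a RING-type ubiquitin ligase of the plasma membrane, was 4.86-fold higher.

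Some peptide ligands rose, while the calls among receptor kinases were mostly lower. Of 11 measured genes for RALF peptides, secreted ligands of wall-sensing receptor kinases, 3 were higher and 0 lower. Over all genes the shares were 4.98% higher and 3.98% lower. RALFL28 was at 7.06, 6.76, 7.17 and 7.05 with TA and 5.47, 5.83, 5.81 and 5.80 with methanol (2.42-fold, adjusted p = 4.71e-06). RALFL33 and RALFL22, both above 8.8 log2 in every methanol array, were 1.58-fold and 1.56-fold higher. FER and THE1, receptor kinases of the CrRLK1L family that monitor the wall, did not pass: FER was at 9.82 to 10.05 with TA and 9.66 to 9.90 with methanol, and THE1 differed by 0.29 ± 0.12 (adjusted p = 0.156). The leucine-rich repeat receptor kinases gave 5 members higher and 15 lower of 113. At a mean of at least 5 log2, 10 of 30 (33.3%) were lower, against 7.22% of all genes at that level. AT4G36180 was at 7.02, 7.06, 6.92 and 6.96 with TA and 7.59, 7.58, 7.70 and 7.56 with methanol (difference -0.62 ± 0.07, adjusted p = 9.65e-05). The largest change of the family was an increase, of AT5G25930, by 1.28 ± 0.16.

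Genes that respond to low oxygen rose together. Of 25 measured members of a list of such genes, 20 were higher and 0 lower, with a median difference of 1.20. Of all genes, 4.98% were higher and 3.98% lower. The list shares only CML38 with the early stress list, 1 of 25 and 1 of 13 members. AT5G66985 was at 9.47, 8.46, 9.34 and 8.93 with TA and 6.75, 6.11, 7.36 and 7.57 with methanol (4.29-fold, adjusted p = 0.000356). AT5G10040 was at 7.44, 6.12, 6.66 and 6.31 with TA and 4.68, 3.84, 4.53 and 5.27 with methanol (4.15-fold). In both genes the groups were separate, although the spread within each was more than 1 log2 unit. AT2G17850 was 3.92-fold higher. The 5 members that did not pass include PDC2, a pyruvate decarboxylase of ethanol fermentation, at 9.94 to 10.17 with TA and 9.97 to 10.25 with methanol. Of the 8 measured genes on the glycolysis list, 7 differed by -0.07 to 0.04 and did not pass. The other, PPDK, was 2.59-fold higher, and this pyruvate orthophosphate dikinase is not an enzyme of glycolysis itself.

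The low-oxygen list also varied between arrays of one group. Relative to the methanol mean, its members averaged 1.28, 0.89, 1.26 and 1.10 log2 on TA replicates 1 to 4 and -0.02, -0.34, 0.08 and 0.28 on methanol replicates 1 to 4. The early stress list was more even, at 1.30, 1.30, 1.43 and 1.40 with TA and -0.09, -0.05, -0.10 and 0.24 with methanol. Methanol replicate 2 was the lowest and methanol replicate 4 the highest of its group on the low-oxygen list, and all 4 TA arrays lay above both. Leaving out any 1 array gave 19 or 20 low-oxygen members and 12 or 13 early stress members higher.

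**Figure D4:**
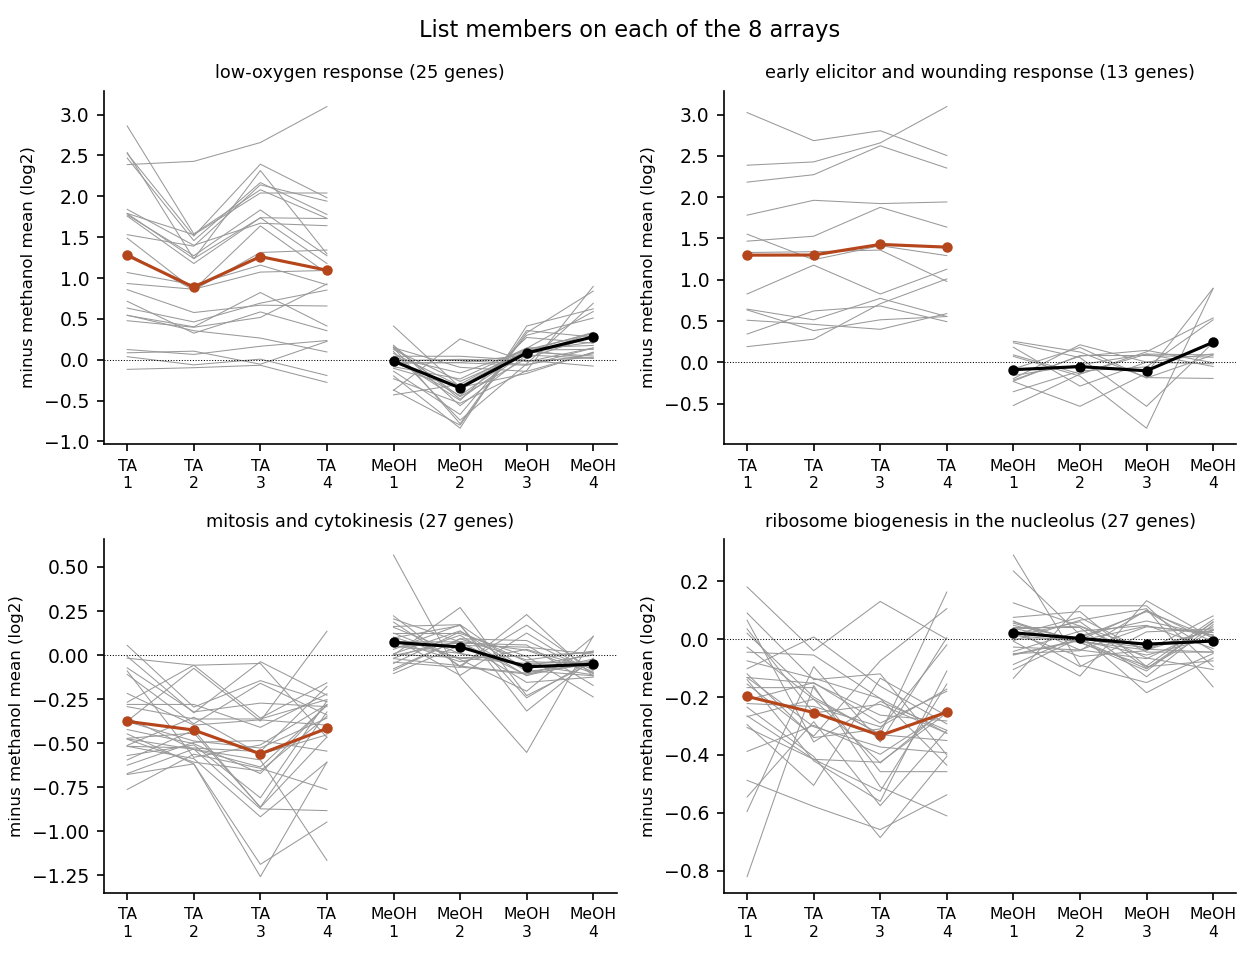
Log2 value minus the methanol mean of the same gene on each of the 8 arrays for 4 gene lists; thin lines are genes and thick lines with points are list means, TA at left and methanol (MeOH) at right. On all 4 TA arrays the low-oxygen and early stress means lie between 0.89 and 1.43 and the mitosis and ribosome biogenesis means between -0.56 and -0.20.

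Membrane traffic genes differed by family. Tetraspanins organise membrane domains and vesicles, and of 15 measured, TET9, TET8 and TET3 rose while the other 12 did not pass. The counts of the families in this group are small, and 4.98% of all genes were higher. TET9 was at 7.54, 7.55, 7.65 and 7.45 with TA and 5.33, 5.41, 5.38 and 5.49 with methanol, 4.43-fold higher with little spread in either group. TET8, a marker of secreted vesicles, was 4.16-fold higher. Of the 10 measured genes with a VPS symbol 3 rose, all of them subunits of the ESCRT-III machinery that sorts membrane proteins for degradation: VPS2.1 by 0.77 ± 0.07, VPS60.1 by 0.68 ± 0.10 and VPS46.2 by 0.37 ± 0.07. Of 11 PRA genes, for prenylated Rab acceptors of the secretory pathway, 3 rose, led by PRA1.B4 at 8.51, 8.47, 8.53 and 8.55 with TA and 7.39, 7.39, 7.35 and 7.19 with methanol. Of 9 genes with a SEC symbol, most of them for the exocyst, which tethers secretory vesicles, 0 passed, with a median of -0.10. ATG8H, of the autophagosome protein family ATG8, was 2.04-fold higher, and the other 8 measured autophagy genes did not pass. Among NET genes, whose proteins tie actin to membranes, NET4B was 2.64-fold higher and NET3C was lower by all 4 arrays, at 3.93, 4.11, 3.94 and 3.89 with TA and 4.69, 4.78, 4.66 and 4.42 with methanol.

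Genes of cell division were lower. On 3 lists covering DNA replication, mitosis with cytokinesis, and kinesins, 35 of 69 measured genes were lower and 0 higher, with a median of -0.32. Over all genes, 3.98% were lower and 4.98% higher. In mitosis and cytokinesis the count was 18 of 27 (median -0.45), and 4 of these were known from earlier results. Without those 4, 14 of 23 were lower. The whole list was written with earlier results known, so this is no independent check. AT5G55520 was at 6.29, 6.35, 5.71 and 6.36 with TA and 7.00, 7.14, 6.88 and 6.85 with methanol (difference -0.79 ± 0.13, adjusted p = 0.00191). AT4G15830 was at 8.07, 8.27, 8.19 and 8.07 with TA and 8.83, 8.91, 8.86 and 8.73 with methanol (difference -0.68 ± 0.08, adjusted p = 8.68e-05). The groups did not overlap in either gene, and no member of the list fell by as much as 1 log2 unit. Members with an established symbol, chosen here after their values were seen, included AUR2, an Aurora kinase of the mitotic spindle, at 6.12 to 6.26 with TA and 6.73 to 6.76 with methanol, and KINESIN-12B, a motor of the cell plate, at 5.68 to 6.22 with TA and 6.30 to 6.71 with methanol.

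Kinesins, the microtubule motors, were lower in 18 of 41 genes. At a mean of at least 5 log2 this was 14 of 20 (70.0%), and for mitosis and cytokinesis it was 17 of 25 (68.0%). Of all genes at that level, 7.22% were lower. The lists overlap in 7 genes, 17.1% of the kinesins and 25.9% of the mitosis list. AT5G60930 was at 6.12, 6.05, 5.72 and 6.03 with TA and 6.62, 6.75, 6.52 and 6.66 with methanol (0.633-fold, adjusted p = 0.000631). Leaving out 1 array gave 11 to 19 kinesins and 16 to 19 mitosis genes lower, and the 11 came without TA replicate 3, without methanol replicate 1 and without methanol replicate 2. The kinesin count was 7 at an adjusted p under 0.01 and 2 by an ordinary linear model, which does not share the spread across probe sets, and the mitosis count was 13 and 7. On the replication list 5 of 8 were lower, and all 8 had a mean of at least 5 log2. PRL, a subunit of the helicase that opens origins, was at 8.17, 8.02, 8.04 and 7.91 with TA and 8.69, 8.57, 8.69 and 8.61 with methanol (difference -0.61 ± 0.08, adjusted p = 0.000225). POLA3 and ICU2, subunits of DNA polymerase alpha, differed by -0.48 and -0.45. The 13 measured core histones gave 0 calls and a median of -0.01. MAP65-type protein ATMAP65-6, the only measured member of its family, was higher by 0.67 ± 0.11. In RNA from whole cultures, fewer cells in a phase of the cycle and less RNA per cell cannot be told apart.

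Ribosome production genes fell in part. Of 27 genes for ribosome assembly in the nucleolus, 8 were lower and 0 higher, with a median of -0.22. At a mean of at least 5 log2, 8 of 25 (32.0%) were lower, against 7.22% of all genes. AT3G21540 was at 5.88, 5.79, 5.71 and 5.83 with TA and 6.28, 6.38, 6.43 and 6.38 with methanol (difference -0.57 ± 0.07, adjusted p = 0.000231). AT4G04940 differed by -0.43 ± 0.08. The 132 cytosolic ribosomal proteins, with array means of 9.10 to 9.18 with TA and 9.14 to 9.28 with methanol, gave 0 calls and a median of -0.07, and 9 proteasome subunits gave 0 calls and a median of -0.13. The 69 measured genes of the chloroplast genome had a median of -0.18, and their calls were near the background, with 0 higher and 4 lower. At a mean of at least 5 log2, 4 of 65 (6.15%) were lower, against 7.22% of all genes at that level. Relative to the methanol mean, the list averaged -0.26 to -0.06 on the TA arrays and -0.15 to 0.12 on the methanol arrays, so the groups overlapped. The column medians of the 8 arrays differed by under 0.1 log2, at 4.757 to 4.851.

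Hormone and stress markers gave scattered calls. WES1, an auxin-conjugating enzyme, was at 3.86, 4.04, 4.17 and 4.12 with TA and 4.53, 4.58, 4.58 and 4.49 with methanol (difference -0.50 ± 0.08, adjusted p = 0.00148), in medium that held 2,4-D for both groups. IAA29, an auxin response repressor, differed by -0.44 ± 0.10. It was the only call among 7 measured Aux/IAA genes, which had a median of 0.07 with 5 of them above 0. WES1 was the only call among 5 measured GH3 genes, which had a median of -0.09. Of all genes, 3.98% were lower. The dehydrins COR47 and LTI30, induced by cold and drought, were 1.76-fold and 1.84-fold higher, and COR15A did not pass at 0.01. COR47 was bright and tight, at 11.71 to 11.88 with TA and 10.91 to 11.09 with methanol. SAG101, a lipase-like protein of immune signalling, was 1.91-fold higher, and SWEET10, a sugar transporter, 1.98-fold. Glutathione transferases gave 0 calls of 14, and UDP-glycosyltransferases 2 higher and 3 lower of 51. At a mean of at least 5 log2, 1 of 11 UDP-glycosyltransferases (9.09%) was higher and 3 (27.3%) lower. Of all genes at that level, 8.04% were higher and 7.22% lower.

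Small heat shock proteins varied within both groups. Their mean was 4.23, 4.30, 4.78 and 5.09 on TA replicates 1 to 4 and 4.10, 4.04, 4.08 and 4.55 on methanol replicates 1 to 4. Replicate 4 was highest in both groups, and the groups overlapped. Only AT1G53540 of 10 passed (adjusted p = 0.039), and that call was lost when any of 6 arrays was left out, with an adjusted p of up to 0.113.

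**Figure D5:**
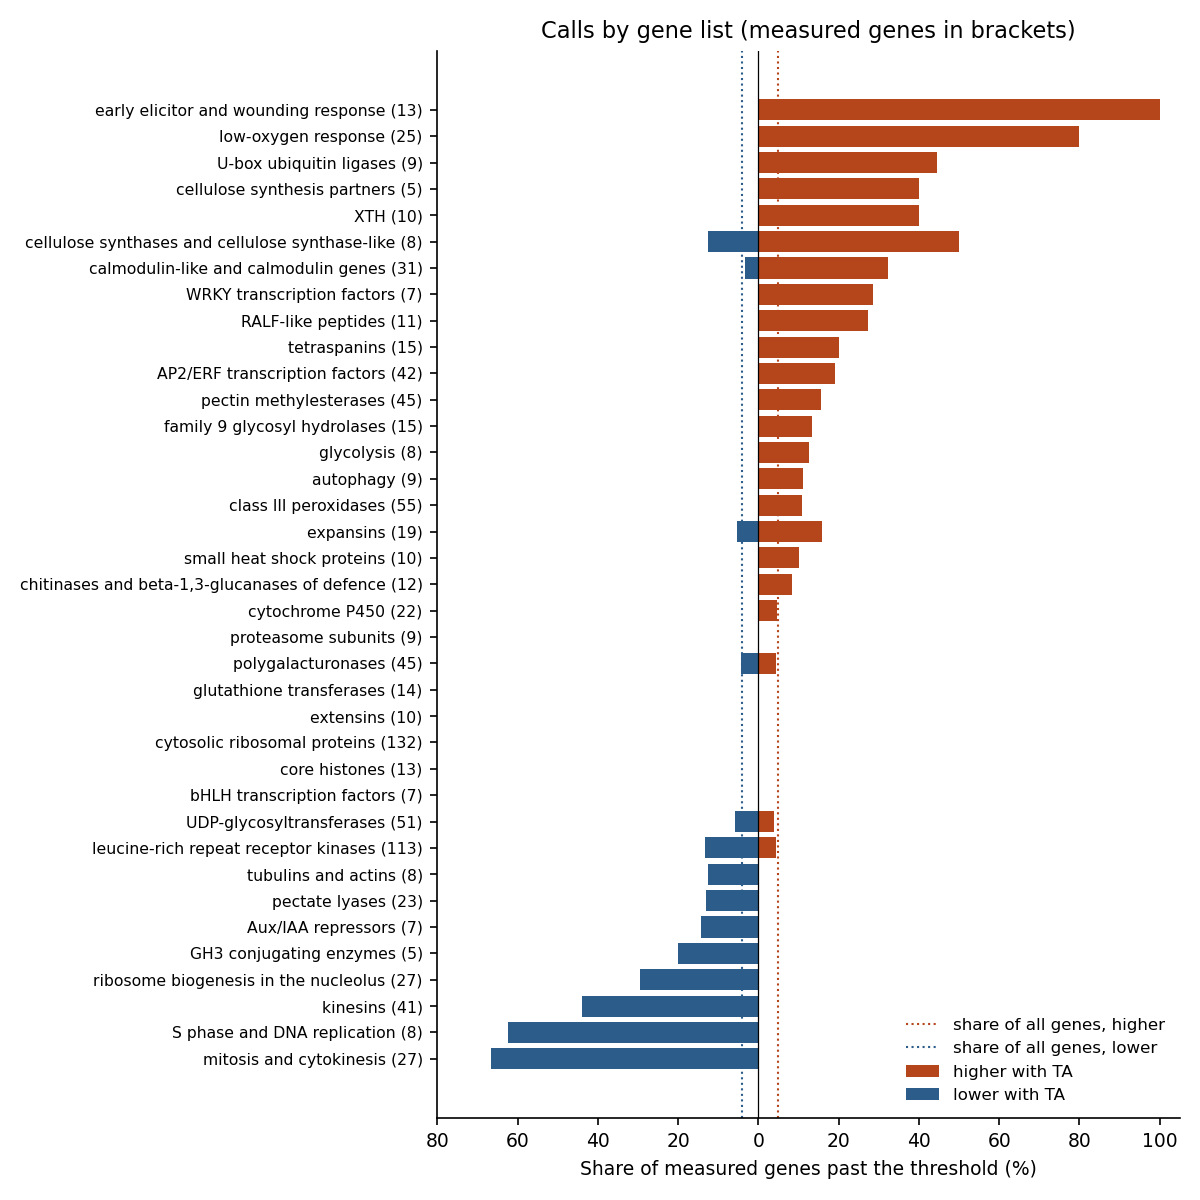
Share of measured genes (%) that were higher (right, red) or lower (left, blue) with TA at an adjusted p under 0.05, for each list of at least 5 measured genes; dotted lines mark the shares over all genes, 4.98% higher and 3.98% lower. Early stress and low-oxygen lists stand at the top, and mitosis, DNA replication and kinesins at the bottom.

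Some of the largest changes fell in genes on none of the lists. AT2G32190 was at 6.31, 6.32, 5.99 and 6.10 with TA and 2.56, 2.71, 2.82 and 2.98 with methanol, 10.6-fold higher (adjusted p = 8.37e-10). AT2G34930 and AT1G20070 were 7.18-fold and 6.87-fold higher. Of 117 probe sets of exactly 1 gene that were higher by at least 1 log2 unit, 44 belong to a list. The share of all such single-gene probe sets on a list was not computed, and the lists were written with earlier results known. At the other end, AT5G12970 had the largest decrease of a named gene, at 5.43, 5.47, 5.21 and 5.35 with TA and 6.31, 6.18, 6.35 and 6.36 with methanol (difference -0.94 ± 0.08, adjusted p = 6.92e-06). RCK, a helicase known from meiotic crossing over, was lower as well, at 4.05 to 4.71 with TA and 4.95 to 5.12 with methanol. The probe set of AT4G03790 fell by 0.70 and can bind related transcripts, so its gene is uncertain.

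Adjacent genes on a chromosome were called together in some places. Over all genes 4.98% were higher and 3.98% lower, and the number of pairs that chance would give was not computed. Among 5814 pairs of measured neighbours, at least 1 gene was higher in 618. Both were higher in 35, both lower in 10, and the calls were opposite in 29. Beside XTH18 and XTH19 these include EXLA3 with EXLA1, BGLU45 with BGLU46, and AT2G47550 with AT2G47560, which was higher by 0.79. AT2G32030, 5.13-fold higher, lies beside AT2G32020, which was higher by 0.85.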

How the data were processed

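Total RNA was hybridised to Affymetrix ATH1 arrays. The deposited values are log2 intensities that the authors made with RMA, per the submitters' processing notes. The RMA version is not given in the sources used here. RMA brings the arrays to a common distribution, so a shift of all transcripts in 1 group cannot be seen, and it shrinks small changes among dim probe sets. Of 22810 probe sets, 64 controls were left out. An annotation table paired 13513 probe sets with exactly 1 gene and 503 with several, and 13436 of the former kind matched the RefSeq gene table. No coordinates are given, since no build is named for the array.

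TA and methanol were compared with limma (version 3.58.1, R 4.3.3), using lmFit, eBayes and two-sided p-values (Benjamini-Hochberg over 22746 probe sets, threshold 0.05), which was tested on simulated data. Python 3.11.15 with pandas 2.3.3, numpy 2.4.6 and matplotlib 3.10.9 made summaries and figures. A gene entered a list by its brightest single-gene probe set. Lists of at least 5 measured genes are described by counts and medians, with no test of a list. The members and lists were chosen with earlier results of these data known, and most loci without a symbol were placed on lists from general knowledge once the gene table was seen. Named genes are the 24 largest increases and 24 largest decreases with separate groups and, for each list, up to 4 called members of largest change, or 1 where none was called. Family assignment by protein similarity and promoter motifs were planned and are not analysed here. The main fit used the group alone, since the labels give no design formula. As a check of pairing, deviations from the group mean were correlated between the TA and methanol arrays of replicates 1 to 4. This gave 0.032, -0.063, 0.295 and 0.078. Only TA replicate 3 correlated best with the methanol array of its own number, and these values cannot settle whether the replicates were paired. Alternatives were a replicate block, other priors, an ordinary linear model, array weights, a stricter threshold, other filters and scalings, and leaving out each array.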

Additional observations from a re-analysis of the deposited data

Results flagged for a closer look

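For the 184 named probe sets, each group of 4 arrays was searched for a single array far from the other 3 by Dixon's criterion. Chance alone marks about 1 group in 20, and 23 of 368 groups were marked. On TA replicate 1, AT2G32030 was at 6.15, AT3G10080 at 4.94, AT3G10720 at 3.95 and EXLA2 at 10.04, each above the other TA arrays. On TA replicate 3, AT5G55520 was at 5.71 and UBP26, a ubiquitin protease, at 5.59, both below the others. On TA replicate 4, AT3G25600 was at 7.96, above the others, while AT5G66230 at 5.94, DER1 at 7.47, SBPASE at 8.43 and SEC5B at 3.37 were below them.

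Among methanol arrays, replicate 1 was low for AT4G02170 at 4.82, PUB23 at 6.24, RALFL28 at 5.47 and XTH19 at 8.45. Replicate 2 was high for AT1G56710 at 5.72 and AT5G07810 at 5.09. Replicate 3 was low for AT4G03790 at 10.04, CSLC12 at 5.34, GH9B7 at 7.88 and TRM31 at 4.93. Replicate 4 was high for AT3G10720 at 2.78 and low for CHR24 at 6.35.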

How the results depend on the processing

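Of the 2299 called probe sets, 0 changed sign under any of the alternatives. The replicate block, other priors, ordinary linear model, filters and stricter threshold leave the log2 difference as it was, so no sign could change there. A sign could change only with array weights, other scalings or an array left out. The count of higher probe sets, 1230 as reported, was 765 by an ordinary linear model and 810 at an adjusted p under 0.01, and that of lower ones, 1069 as reported, 477 and 397. Fewer probe sets pass there because the spread is no longer shared across probe sets or the threshold is stricter. Leaving out 1 array gave 1014 to 1144 higher and 637 to 1137 lower, with 637 lower without methanol replicate 2 and 659 without TA replicate 3; fewer arrays enter each of these fits. With the replicate number as a block the counts were 1316 and 1181, and only 1 of the 4 TA arrays correlated best with the methanol array of its own number. The small heat shock proteins gave 5 members higher with the block and 1 without it. Array weights gave 1343 higher and 1422 lower. Among 155 named and called genes, 129 kept the call without each array in turn and 26 lost it at least once, none of them among the 48 largest changes. Those 48 were chosen for large changes and separate groups, which favours keeping the call. By the ordinary linear model, 2 kinesins, 7 mitosis, 3 replication and 5 ribosome assembly genes were lower, and 6 calmodulin-like and 5 AP2/ERF genes higher; at an adjusted p under 0.01, 7 kinesins, 9 leucine-rich repeat kinases and 4 ribosome assembly genes were lower. Without dim probe sets 2 XTH genes and 3 pectin methylesterases were higher. By symbol alone the families hold few genes: 3 of 4 pectin methylesterases, 2 of 6 peroxidases and 3 of 8 calmodulin-like genes were higher and 1 of 1 kinesins lower, with 0 calls for the 1 polygalacturonase and the 1 leucine-rich repeat kinase, so those counts rest on loci placed from general knowledge. The AP2/ERF, pectate lyase and small heat shock families hold 0 genes by symbol. Without the loci added once the gene table was seen, AP2/ERF keeps 2 genes, with 2 higher, and pectate lyases 3, with 1 lower. Mitosis and cytokinesis keeps 15 genes, with 11 lower, DNA replication 4, with 4 lower, and kinesins 2, with 2 lower. Ribosome assembly and small heat shock proteins then keep 0 genes. The 4 arrays per group limit the precision.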

Other observations

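Genes with an established symbol that lie outside the lists added functions to both sides. They were chosen after their values were seen, as those higher by at least 0.6 or lower by at least 0.4 log2, which gave 17 and 25 genes. GT2, a trihelix DNA-binding factor, was at 4.58, 5.02, 5.05 and 5.36 with TA and 3.16, 3.82, 3.43 and 3.43 with methanol, 2.91-fold higher. HMT-1, a homocysteine methyltransferase, was at 7.90 to 8.19 with TA and 6.41 to 6.82 with methanol (2.68-fold). OSM34, an osmotin-like protein, was 1.97-fold higher, and ARL, a regulator of organ size, 1.98-fold. OPCL1, which activates jasmonate precursors, was 1.53-fold higher, and CLE41, a peptide of vascular signalling, 1.67-fold.

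Among those lower, NRPA1, the largest subunit of RNA polymerase I, was at 5.99, 6.14, 5.83 and 6.28 with TA and 6.79, 6.66, 6.57 and 6.70 with methanol (difference -0.62 ± 0.10, limma adjusted p = 0.00122). NRPA2, the second subunit, was at 6.38 to 6.70 with TA and 7.01 to 7.17 with methanol. RAPTOR1 and RAPTOR2, both copies of a partner of the growth kinase TOR, were 0.730-fold and 0.706-fold of the methanol level (adjusted p = 0.00211 and 0.0319). FANCM and RECQ4B, DNA helicases of recombination, were 0.671-fold and 0.747-fold. The myosins XI-I and XIH were 0.735-fold and 0.752-fold (adjusted p = 0.00455 and 0.0388). TMT2, a sugar transporter of the vacuole, was 0.673-fold, and SBE2.2, a starch branching enzyme, 0.683-fold.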
